A study of Mus musculus with 15 samples.

Results

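The 9 genes described here code for the enzymes and adaptor proteins of active DNA demethylation: Tet1, Tet2, Tet3, Gadd45a, Gadd45b, Gadd45g, Tdg, Smug1 and Apobec1. Their CpG methylation was read by reduced representation bisulfite sequencing (RRBS), a method that cuts DNA at CpG-rich places and reads the resulting fragments once bisulfite has converted their unmethylated cytosines, in dentate gyrus dissected from 15 mice. A CpG site is here 1 cytosine on 1 strand, and a site was taken as a member when it lay inside one of these genes or within 5 kb of either end in the RefSeq annotation of GRCm38. That gave 309 of the 455836 CpG sites in the data: 78 at Tet1, 28 at Tet2, 34 at Tet3, 22 at Gadd45a, 74 at Gadd45b, 32 at Gadd45g, 5 at Tdg, 28 at Smug1 and 8 at Apobec1. All mice were female C57BL/6JRj, aged 7.5 months, with no genetic modification named in the labels. The 3 groups of 5 were kept in standard cages for 6 months (standard), in environmental enrichment for 6 months (enriched), or in enrichment for 3 months and then standard cages for 3 months (withdrawal). Environmental enrichment is a housing with more space and stimuli than a standard cage. The design asks what enrichment changed, and what was still different from standard housing 3 months after it ended. Only DNA was assayed, so nothing is known here of the genes' expression.

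TET dioxygenases oxidise methylcytosine to hydroxymethylcytosine and onward to formylcytosine and carboxylcytosine. The glycosylase TDG cuts the last pair of these bases out of DNA, SMUG1 removes uracil and hydroxymethyluracil, and base excision repair puts back an unmethylated cytosine. GADD45 proteins are small stress-inducible nuclear adaptors that bring repair enzymes to DNA, and Gadd45b is known as an activity-induced gene of dentate granule neurons that promotes demethylation at growth factor promoters. APOBEC1 is a cytidine deaminase best known for editing apolipoprotein B RNA. Bisulfite reads methylcytosine and hydroxymethylcytosine alike, so a methylation level here is the sum of both.

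The promoters of 4 members are printed because sites named in the results lie in them, or at Tet1 part of a stretch of sites described below. The 4 promoters also differ in how much of them RRBS reached. Each is the RefSeq window from 250 bases before to 50 bases after the start of the gene (GRCm38.p6), written 5′ to 3′ along the gene, and capitals mark the CpGs that had a methylation value. The windows are chr10:80929841-80930140 on the plus strand for Gadd45b, and on the minus strand chr6:67037358-67037657 for Gadd45a, chr3:133544341-133544640 for Tet2 and chr10:62887275-62887574 for Tet1.
Gadd45b: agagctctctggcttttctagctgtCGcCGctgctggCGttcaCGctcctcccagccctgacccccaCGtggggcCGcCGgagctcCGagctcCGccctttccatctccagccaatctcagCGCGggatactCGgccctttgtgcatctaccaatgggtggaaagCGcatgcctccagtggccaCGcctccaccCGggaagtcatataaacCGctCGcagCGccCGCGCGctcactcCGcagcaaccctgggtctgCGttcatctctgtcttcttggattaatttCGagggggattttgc
Gadd45a: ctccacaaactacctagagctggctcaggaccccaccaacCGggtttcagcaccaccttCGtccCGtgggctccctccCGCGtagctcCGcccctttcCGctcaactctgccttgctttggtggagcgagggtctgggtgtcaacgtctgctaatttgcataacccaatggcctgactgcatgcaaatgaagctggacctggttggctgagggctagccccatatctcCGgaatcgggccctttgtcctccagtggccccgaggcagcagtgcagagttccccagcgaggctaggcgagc
Tet2: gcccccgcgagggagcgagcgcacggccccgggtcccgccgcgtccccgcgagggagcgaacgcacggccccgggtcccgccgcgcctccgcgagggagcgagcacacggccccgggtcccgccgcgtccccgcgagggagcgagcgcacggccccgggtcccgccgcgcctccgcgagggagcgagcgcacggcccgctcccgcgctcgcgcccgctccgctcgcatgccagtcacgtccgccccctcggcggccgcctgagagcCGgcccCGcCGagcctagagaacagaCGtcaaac
Tet1: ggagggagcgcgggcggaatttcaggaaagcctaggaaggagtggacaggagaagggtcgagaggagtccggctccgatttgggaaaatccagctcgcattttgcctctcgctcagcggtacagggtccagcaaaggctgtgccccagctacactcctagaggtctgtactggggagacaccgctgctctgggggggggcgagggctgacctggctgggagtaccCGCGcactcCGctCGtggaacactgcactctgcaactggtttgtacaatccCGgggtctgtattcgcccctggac

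In the Gadd45b window all 24 CpGs were measured. They gave 29 sites and 398 values over the mice, of which 350 were 0% and the highest was 41.2%. At Gadd45a 8 of 14 CpGs were measured, and 98 of 104 values were 0%. Tet2 had the densest window, with 57 CpGs where the median of all 32851 RefSeq promoter windows is 7. Only 4 of them were measured, all after the start, and the 51 CpGs before the start had no value. That upstream stretch holds 5 copies of CCGCGAGGGAGC. At Tet1 5 of 17 CpGs were measured, and 44 of 50 values were 0%. The windows of Tet3 and Smug1 had 3 of 22 and 7 of 15 CpGs measured, while those of Gadd45g, Tdg and Apobec1 had 0 of 21, 0 of 26 and 0 of 9.

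Short promoter motifs were searched on both strands of these windows, with positions counted from the start base as 0 and given for a match's base farthest upstream. Gadd45b held the E-box CACGTG at -185 (7.15% of all windows hold this motif), the GC box GGGCGG at -158 (35.7% of all windows) and the CCAAT box at -139 and -100 (37.4% of all windows). The cytosine of the Gadd45b E-box CpG was among those measured, as the capitals in the printed sequence show. Gadd45a held a GC box at -163 and a CCAAT box at -86. In Tet2 TGACG, a core of the cyclic AMP response element, lay at 42 (20.8% of all windows) and a GC box at -11, and Tet1 held a GC box at -239. No match in the printed windows overlapped another, and a match describes letters only.

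The values were percentages without read counts, so the depth behind them is unknown. The number of member sites with a value is a partial view of it. It ran from 156 of 309 in standard mouse 1 (50.5%) and 210 in enriched mouse 1 to 297 in withdrawal mouse 4 (96.1%), and the other 12 mice had 254 to 287. Only 66 member sites had a value in all 15 mice, but every one had a value in at least 3 mice of each group. The labels number 5 samples in each group of mice and name no library batch, and each sample was taken as 1 mouse. Cytosines outside CpG in the same gene regions, which include unconverted ones, averaged 0.413% at Tet3 to 1.30% at Gadd45g. Where both strands of a member CpG were read in the same mouse (27 CpGs, 274 mouse values), the strands gave the same percentage in 70.4% and differed by up to 90.9 points. Expression markers cannot check the tissue in DNA. Among the granule neuron genes looked at, only the start of Prox1 had enough sites. It had 1.48% ± 0.714 (SD, n = 5) in standard mice over 30 sites, including those with values in part of the mice. Over its 5 sites with values in all mice it had 4.36% ± 2.03 in the same mice.

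The member sites were mostly unmethylated. Their mean over mice was under 20% at 247 sites (79.9%), between 20% and 80% at 25 (8.09%) and above 80% at 37 (12.0%). Over all CpG sites (leaving out Y and mitochondrial ones) the same classes held 52.4%, 17.2% and 30.4%, and over the 258455 sites inside or within 5 kb of protein-coding genes they held 65.7%, 14.4% and 19.9%. At 110 member sites every mouse with a value had 0%. The measured sites lay at other distances from the start in each gene, so the shares describe sites and not whole genes. All 22 sites at Gadd45a and 73 of 74 at Gadd45b were under 20%, whereas all 5 at Tdg, 4 inside the gene from 14993 bases after its start and 1 downstream of it at 23745 bases, were above 80%.

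**Figure D1:**
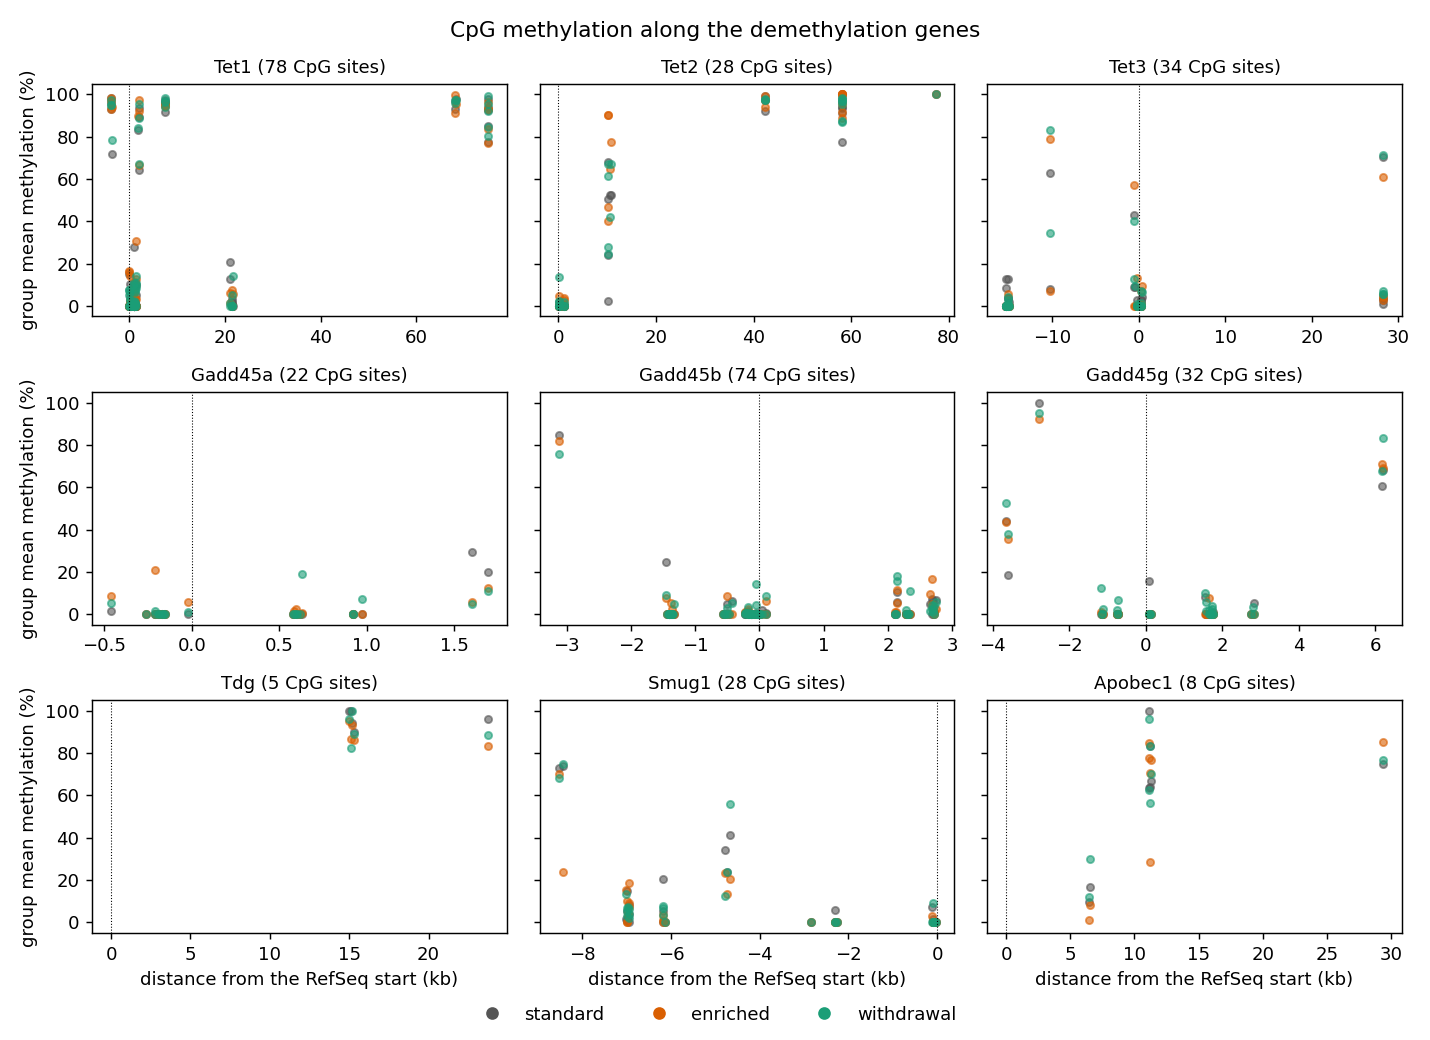
Mean methylation in percent of each group (standard grey, enriched orange, withdrawal green) at every member CpG site. The horizontal axis is the distance in kb from the RefSeq start of the gene, with negative distances upstream of that start. The annotated spans of Tet1, Tet3 and Smug1 reach upstream of it, so sites at negative distances there can lie inside the gene. The starts are mostly near 0% wherever they were measured, the bodies of Tet1, Tet2 and Tdg reach 80 to 100%, and Tdg and Apobec1 have no site near their start.

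No member site differed between housing groups after adjustment, and no site elsewhere in the genome did either. The percentages were compared as log2((percent + 5)/(100 - percent + 5)), a log2 ratio of methylated to unmethylated DNA whose differences are given with their standard errors (SE), by limma with 1 fit of the 3 group means, at sites whose range over mice was at least 5 points. Of the 309 member sites 185 were tested and 124 had a smaller range. With p-values adjusted by Benjamini-Hochberg over all 350663 tested sites, 0 were called at an adjusted p under 0.05 in each comparison (0% of all tested sites). The smallest adjusted p of any site was 0.309 in enriched against standard mice, 0.491 in withdrawal against standard mice and 0.186 in withdrawal against enriched mice. At an unadjusted limma p under 0.05 there were 12, 14 and 11 member sites of 185 (6.49%, 7.57% and 5.95%), beside 4.67%, 4.3% and 4.18% of all tested sites. The member shares were a little higher in each comparison. That excess was not tested, and neighbouring sites can share reads, so the sites are not independent.

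Both directions occurred among those member sites. Enriched exceeded standard at 7 of the 12, withdrawal exceeded standard at 7 of the 14, and withdrawal exceeded enriched at 8 of the 11. These were 3.78%, 3.78% and 4.32% of the 185 member sites, where 2.41%, 2.35% and 2.24% of all tested sites were higher at that p. The groups did not overlap at 3, 2 and 1 member sites in the same order (1.62%, 1.08% and 0.541%), against 1.22%, 1.11% and 1.11% of all tested sites. The median difference over the 185 sites was 0, 0.84 and 0.0311 points, and over all tested sites it was 0 in each comparison. A difference of at least 20 points was seen at 7.03%, 5.41% and 5.41% of the member sites and at 8.79%, 7.44% and 7.23% of all sites. Differences of that size were thus no more common among the member sites than among all sites.

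**Figure D2:**
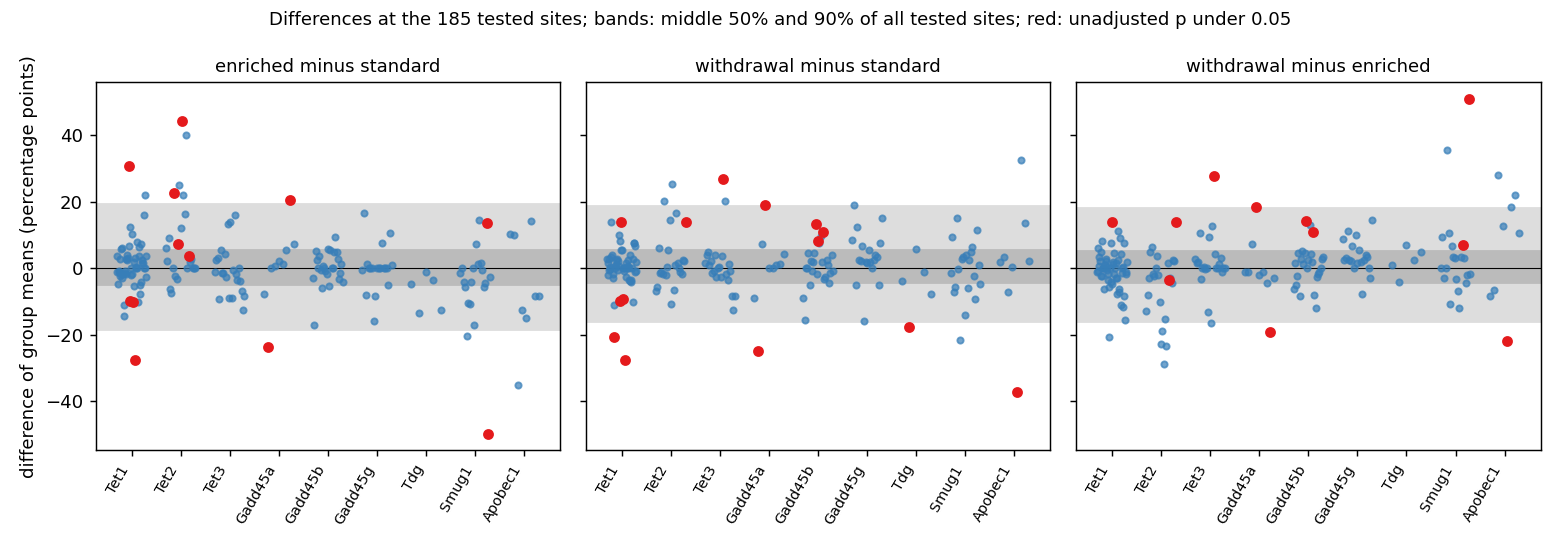
Difference of group means in percentage points at the 185 tested member sites, by gene, for the 3 comparisons. Red points have an unadjusted limma p under 0.05 (12, 14 and 11 sites), and the grey bands hold the middle 50% and 90% of all 350663 tested sites. Most member sites lie within the inner band.

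Tet1, a TET enzyme with a CXXC domain that binds unmethylated CpG, spans 82.9 kb of chromosome 10 (62804570 to 62887469, minus strand). Its 78 sites were methylated along the body and unmethylated around the start. Clusters, meaning neighbouring sites joined across gaps of up to 100 bases, had means of 2.45% from -24 to 341 bases and 2.67% from 859 to 1420 bases after the start. At 1927 to 1993 bases the level was 84.2%, then 95.5% at 7444 to 7506 bases, 96.0% near 68.1 kb and 89.4% near 74.9 kb. A block inside the gene near 21.4 kb was an exception at 1.25%, and 3 sites upstream from -3813 to -3746 had 95.8%. The low block is 5 sites on chromosome 10 at 62865890 to 62865949.

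The Tet1 site with the smallest p lay 1083 bases after the start (chromosome 10, 62886241, minus strand), inside the unmethylated block. It had 0, 33.3 and 50% in standard mice 2, 3 and 5 and 0% in all 4 enriched and all 4 withdrawal mice with a value. The difference of -27.8 points in both comparisons with standard therefore came from 2 mice (log2 difference -2.63 ± 0.81 SE, limma adjusted p = 0.892 and 0.911), and against withdrawal it was -16.7 points without standard mouse 5. On the opposite strand of the same CpG the standard mice with a value had 0% and enriched mouse 2 had 7.69%. At 1305 bases the withdrawal mice had 18.2, 25, 0 and 12.5% where every standard and enriched mouse with a value had 0%. That is 13.9 points above standard (log2 difference 1.86 ± 0.60 SE, limma adjusted p = 0.911). On the opposite strand of that CpG, at 1306 bases, the groups overlapped. There standard mice 2 and 3 had 15.6 and 5.63%, enriched mouse 4 had 16.7%, the withdrawal mice had 13.0, 19.6, 18.6, 2.38 and 0%, and the other mice with a value had 0%.

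Averages over Tet1 sites differed little between groups. The 4 sites near the start with values in all mice were at 0% in 14 mice and at 1.04% in enriched mouse 3. The mean of the 20 complete sites more than 1 kb from the start was 67.9% ± 2.09 (SD, n = 5) in standard mice, 68.5% ± 1.08 in enriched mice and 68.4% ± 1.56 in withdrawal mice. These differ by less than the spread between mice (limma, adjusted p = 0.971, 0.996 and 0.997). Among the Tet1 clusters averaged over sites with values in all mice, the one near 74.9 kb had the largest spread over mice, where standard mouse 2 had 76.9% and the other 14 mice 85.0 to 94.4%.

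Tet2, a TET enzyme without a CXXC domain of its own, lies on chromosome 3 (133463677 to 133545136, minus strand). Its sites were at 1.32% just after the start and 0.77% at 1049 to 1107 bases. They were methylated deep in the gene, with 96.8% near 42.3 kb and 94.5% near 58.1 kb. Between these lay 4 sites at 10170 to 10239 bases with a mean of 48.0%, and lone sites at 10669 and 10862 bases with 53.1% and 65.5%. This stretch holds 3 of the 5 member sites with the largest spread within groups, at 10224, 10239 and 10669 bases, with SDs of 37.0, 32.7 and 32.9 points. At 10224 bases the standard mice had 0, 33.3, 11.9 and 50%, the enriched mice 0, 20 and 100%, and the withdrawal mice 40, 66.7, 0, 16.7 and 0%, so every group reached from 0% to at least 50%. At 10239 bases the standard mice had 0, 0, 10 and 0%, the enriched mice 40, 0 and 100%, and the withdrawal mice 40.9, 50, 0, 47.6 and 0%. Enriched exceeded standard there by 44.2 points (log2 difference 3.78 ± 1.71 SE, limma adjusted p = 0.892), with 1 enriched mouse at the level of the standard mice. Without enriched mouse 4, at 100%, that difference was 17.5 points. At 10170 bases enriched mice had 80, 90.9 and 100% and standard mice 38.9, 59 and 52.9%, so the groups did not overlap, and the test did not call it (limma adjusted p = 0.892).

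At 42288 bases, the Tet2 site with the smallest p (chromosome 3, 133502102, plus strand), standard mice had 98.2, 88.7, 95.5, 90.4 and 86.4%. The enriched mice had 100, 98.7, 100, 97.4 and 100%, and the withdrawal mice 98.1, 91.2, 100, 96.7 and 100%. The highest standard mouse reached into the enriched range. Enriched was 7.38 points above standard (log2 difference 1.22 ± 0.48 SE, limma adjusted p = 0.892). Sites with values in part of the mice were averaged as each mouse's mean deviation from the site means, and by that measure Tet2 sites away from the start had 61.8% ± 1.97 (SD, n = 5) in standard mice, 69.3% ± 5.65 in enriched mice and 63.8% ± 5.92 in withdrawal mice. Enriched against standard gave 7.50 points (log2 difference 0.44 ± 0.18 SE, limma adjusted p = 0.768). With only the 9 sites complete in all mice the difference was 3.59 points (log2 difference 0.19 ± 0.11 SE, limma adjusted p = 0.886).

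Just after the Tet2 start, at 16 bases within the printed window (chromosome 3, 133544374, minus strand), 3 withdrawal mice had 33.3, 23.5 and 12.1%. The other withdrawal mice and every standard and enriched mouse with a value had 0%. Withdrawal exceeded standard by 13.8 points (log2 difference 1.66 ± 0.68 SE, limma adjusted p = 0.911), and the ranges overlapped at 0%.

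Tet3, known for oxidising the paternal genome in the zygote, spans 94.8 kb of chromosome 6 (83362373 to 83457208, minus strand), and RefSeq lists B230319C09Rik, Bola3 and Mir6374 within 5 kb of it. Its annotated span reaches upstream of the start used here, and the 15 sites near that outer end (-15374 to -15055 bases) were unmethylated, with cluster means of 0.868% and 1.53%. Near the start the clusters had 1.28% and 2.48%. Intermediate levels were found at -558 to -500 bases (20.1%), at -10326 to -10316 bases (45.7%) and near 28.2 kb (20.02%).

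The pair of sites near -10.3 kb entered the average of Tet3 sites away from the start. At -10316 bases (chromosome 6, 83451994, plus strand) the standard mice had 0, 18.8, 0, 20 and 0%, the enriched mice 0, 0, 1.79, 0 and 33.3%, and the withdrawal mice 15.5, 34.6, 41.2, 56.4 and 25.5%. No withdrawal mouse was at 0%, while the lowest of them lay under 2 standard mice and 1 enriched mouse. Withdrawal was 27.6 points above enriched (log2 difference 2.71 ± 0.84 SE, limma adjusted p = 0.922) and 26.9 points above standard (log2 difference 2.47 ± 0.84 SE, limma adjusted p = 0.911). With 1 mouse left out in turn the first of these ran from 22.2 points without withdrawal mouse 4 to 34.2 without enriched mouse 5. The neighbouring site 10 bases away averaged 62.9% in standard mice, 78.9% in enriched mice and 83.2% in withdrawal mice.

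Averaged over the 4 complete Tet3 sites away from the start, the standard mice had 29.9, 13.8, 17.0, 23.5 and 9.09%, the enriched mice 27.6, 19.8, 20.4, 27.9 and 23.5%, and the withdrawal mice 33.9, 24.3, 35.3, 41.7 and 28.1%. Only the highest standard mouse lay above the lower withdrawal mice. Withdrawal exceeded standard by 14.0 points (log2 difference 0.98 ± 0.28 SE, limma adjusted p = 0.741). When all 21 sites were used, as deviations from the site means, the difference was 2.03 points (log2 difference 0.26 ± 0.17 SE, limma adjusted p = 0.991).

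Gadd45a, the p53-induced member of its family, is a short gene of 2312 bases on chromosome 6 (67035096 to 67037407, minus strand), and RefSeq lists E230016M11Rik within 5 kb. All of its 6 clusters were low, from 0.633% at -261 to -152 bases to 13.6% at 1602 to 1693 bases. The site with the smallest p lay at 1602 bases (chromosome 6, 67035805, minus strand), inside the gene. Standard mice had 27.3, 17.9, 46.2 and 27.0%, enriched mice 0, 10.7, 12.5 and 0%, and withdrawal mice 4.17, 11.1, 8.33, 0 and 0%. Every standard mouse with a value lay above every mouse of the other groups. Withdrawal minus standard was -24.9 points (log2 difference -2.36 ± 0.73 SE, limma adjusted p = 0.911) and enriched minus standard -23.8 points (log2 difference -2.27 ± 0.77 SE, limma adjusted p = 0.892). Both comparisons share the standard mice, so they are not independent.

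Near the Gadd45a start the standard mice were the lowest instead. The 20 sites within 1 kb of the start were averaged as the mean of the site means plus each mouse's mean deviation from them. Results under 0% were set to 0%, so these are not plain means of the values read. They were 1.17, 0, 0, 0 and 0.0231% in the standard mice, 5.13, 0.113, 0.58, 2.13 and 2.51% in the enriched and 2.87, 1.91, 1.46, 1.69 and 0.854% in the withdrawal mice. Enriched exceeded standard by 1.85 points (log2 difference 0.43 ± 0.18 SE, limma adjusted p = 0.858) and withdrawal exceeded standard by 1.52 points (log2 difference 0.39 ± 0.18 SE, limma adjusted p = 0.89). By this measure the ranges overlapped through standard mouse 1, which had the fewest member sites. That mouse had no value in the clusters at 581 to 630 and 920 to 972 bases, so its 1.17% depends on the site means. In the cluster at -261 to -152 bases the same measure gave it 0.812%, the value also given to enriched mice 2 and 5. At -209 bases in the printed window, enriched mice 1 and 4 had 33.3 and 28.6% and enriched mouse 3 had 0%, beside 0% in 4 standard mice (20.6 points above standard, log2 difference 2.23 ± 0.72 SE, limma adjusted p = 0.892). At 630 bases 4 withdrawal mice had 50, 10.5, 25 and 10% and withdrawal mouse 3 had 0%, while the standard and enriched mice had 0 to 2.78%.

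Gadd45b lies on chromosome 10 (80930091 to 80932204, plus strand), and it was the most densely measured of the short genes with 74 sites. Its clusters averaged 1.09% at -1453 to -1331 bases, 1.29% at -570 to -425, 0.568% at -224 to 103, 4.53% at 2104 to 2148, 0.945% at 2283 to 2343 and 3.65% at 2654 to 2741. A single site at -3129 bases was methylated, at 80.5%. The promoter thus sat in an unmethylated stretch in all 3 groups. The 10 complete sites near the start averaged 0.469% ± 0.316 (SD, n = 5) in standard mice, 1.25% ± 1.02 in enriched mice and 1.47% ± 0.766 in withdrawal mice. The highest mice were enriched 2 at 2.73% and withdrawal 5 at 2.61%, and the ranges of the groups overlapped. Withdrawal minus standard was 1.01 points (log2 difference 0.25 ± 0.14 SE, limma adjusted p = 0.9), and enriched minus standard 0.78 points (log2 difference 0.19 ± 0.14 SE, limma adjusted p = 0.859). The 6 complete Gadd45b sites more than 1 kb from the start had 16.8% ± 2.94 (SD, n = 5) in standard housing, 16.6% ± 2.61 in enrichment and 18.2% ± 6.00 after withdrawal. They join the 5 low sites at 2104 to 2148 bases with the methylated site at -3129 bases. With all 36 sites, including those with values in part of the mice, the levels were 4.47% ± 1.70, 4.53% ± 1.15 and 4.46% ± 2.13 in the same order. The group means differed by less than the spread between mice.

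Within the Gadd45b promoter the values above 0% were few and scattered. At -55 bases (chromosome 10, 80930036, minus strand) withdrawal mice 3, 4 and 5 had 14.8, 14.7 and 41.2%, the other withdrawal mice and all enriched mice had 0%, and standard mouse 3 had 3.12%. Withdrawal exceeded enriched by 14.1 points (log2 difference 1.67 ± 0.62 SE, limma adjusted p = 0.922), or 7.38 points without withdrawal mouse 5. The opposite strand of that CpG had 18.9% in withdrawal mouse 3 and 3.23% in withdrawal mouse 5. At 103 bases the withdrawal mice had 4.17, 12.8, 6.52, 0 and 19.4%, the enriched mice 0, 21.3, 0, 9.43 and 0%, and 4 of 5 standard mice 0%. Withdrawal minus standard was 8.19 points there (log2 difference 1.27 ± 0.59 SE, limma adjusted p = 0.911).

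**Figure D3:**
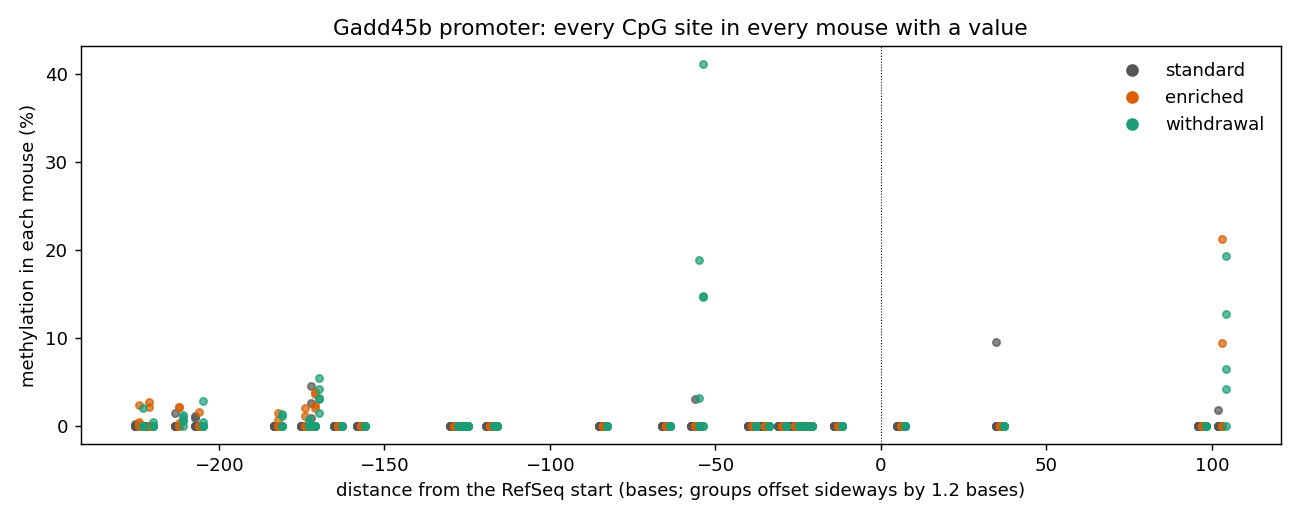
Methylation in percent of each Gadd45b site from -224 to 103 bases around the start in every mouse with a value, coloured by group, with groups shifted sideways for legibility. Nearly all points lie at 0%, and the highest are the withdrawal mice at -55 bases and enriched and withdrawal mice at 103 bases.

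Gadd45g, on chromosome 13 (51846675 to 51848475, plus strand), is a family member expressed as neurons form in development. Its clusters from -1163 to 2832 bases were at 0.94 to 1.24%, and methylation was 95% at -2791 bases, 39.1% at -3652 to -3607 and 69.9% at 6182 to 6208. The 6 complete sites from 1559 to 1760 bases (chromosome 13, 51848234 to 51848435) were at 0% in all 5 enriched mice. The standard mice had 0, 1.67, 0.813, 0 and 5.20%, and the withdrawal mice 4.63, 4.90, 0, 1.92 and 4.81%. Withdrawal exceeded enriched by 3.25 points (log2 difference 0.72 ± 0.23 SE, limma adjusted p = 0.993), the smallest p among the 11 member clusters tested, with withdrawal mouse 3 at the enriched level. With all 12 sites of that cluster, including those with values in part of the mice, enriched mouse 3 had 1.92%. Withdrawal then exceeded enriched by 1.74 points (log2 difference 0.42 ± 0.17 SE, limma adjusted p = 0.972). Of the 11 clusters, 1 was at an unadjusted p under 0.05 in that comparison and 0 in the others. Of all clusters tested, 4.46%, 5.55% and 4.86% passed that p for withdrawal against enriched, enriched against standard and withdrawal against standard. At 93 bases standard mouse 2 had 47.4% and every other mouse with a value 0%, which gave the smallest p at a single Gadd45g site (log2 difference -1.42 ± 0.74 SE, limma adjusted p = 0.911).

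Tdg, whose loss is lethal in mouse embryos, lies on chromosome 10 (82629814 to 82650799, plus strand) with Glt8d2 within 5 kb. Its 5 sites had 88.4 to 96.9% methylation. At 15130 bases (chromosome 10, 82644968, minus strand) all 5 standard mice had 100%, the enriched mice 100, 46.2, 100 and 100%, and the withdrawal mice 71.1, 74.1, 84.2 and 100%. Withdrawal minus standard was -17.7 points (log2 difference -2.14 ± 0.90 SE, limma adjusted p = 0.911), with 1 withdrawal mouse at the standard level. Over the 5 sites, averaged from deviations from the site means, the level was 96.3% ± 2.72 (SD, n = 5) in standard mice, 89.5% ± 9.12 in enriched mice and 90.5% ± 4.74 in withdrawal mice. The difference was -6.84 points for enriched (log2 difference -0.77 ± 0.48 SE, limma adjusted p = 0.886) and -5.84 points for withdrawal (log2 difference -0.82 ± 0.48 SE, limma adjusted p = 0.991), both against standard.

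Smug1 lies on chromosome 15 (103153290 to 103168939, minus strand). Its annotated span reaches upstream of the start used here (103163284). Of its 28 sites 14 lay inside that span, those at -4.7 kb among them, and 14 lay upstream of it. The 7 sites at its start averaged 1.03%, sites at -6.1 to -7.0 kb 4.24 to 6.29%, those at -4.7 kb 27.2%, and single sites at -8429 and -8533 bases 59.1% and 70.6%. At -8429 bases (chromosome 15, 103171713, plus strand) standard mice had 91.7, 44.4, 100 and 58.8%, enriched mice 52.6, 0 and 19.0%, and withdrawal mice 80, 64.3 and 80%. Enriched minus standard was -49.8 points (log2 difference -3.89 ± 1.44 SE, limma adjusted p = 0.892), and withdrawal minus enriched 50.9 points (log2 difference 3.46 ± 1.54 SE, limma adjusted p = 0.922). The enriched and withdrawal mice did not overlap, while 1 enriched mouse lay above the lowest standard mouse. Only 3 enriched and 3 withdrawal mice had a value, and without enriched mouse 3 the enriched difference was -37.9 points. The 21 Smug1 sites away from the start, averaged from deviations from the site means, gave 15.9% ± 5.03 (SD, n = 5) in standard mice, 11.3% ± 6.39 in enriched mice and 13.9% ± 2.79 in withdrawal mice.

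Apobec1 lies on chromosome 6 (122577792 to 122603024, minus strand) next to Gdf3, and all its sites were away from its start. The 5 sites from 11137 to 11273 bases averaged 72.4%, and the 2 at 6495 to 6516 bases 14.4%. At 11138 bases (chromosome 6, 122591306, plus strand) the 3 standard mice with a value had 100%, the enriched mice 100, 100, 39.4 and 100%, and the withdrawal mice 62.2, 54.1, 66.7 and 68.2%. Standard and withdrawal mice did not overlap, and withdrawal minus standard was -37.2 points (log2 difference -3.70 ± 1.10 SE, limma adjusted p = 0.911). On the opposite strand of the same CpG the standard mice had 100, 81.8 and 9.09% and the withdrawal mice 100, 100, 84.2 and 100%, a difference of 32.4 points (log2 difference 2.64 ± 1.60 SE, limma adjusted p = 0.911), and 5.14 points without standard mouse 5, the mouse at 9.09%. With both strands averaged it was -6.61 points. The site at 11273 bases had the largest spread of any member site, with standard mice at 100, 0 and 100% (SD within groups 40.7 points). All 8 Apobec1 sites together, each mouse taken as its mean deviation from the site means because values were missing, gave 62.0% ± 8.92 (SD, n = 5) in standard mice, 56.5% ± 4.16 in enriched mice and 61.2% ± 4.81 in withdrawal mice, which overlap.

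**Figure D4:**
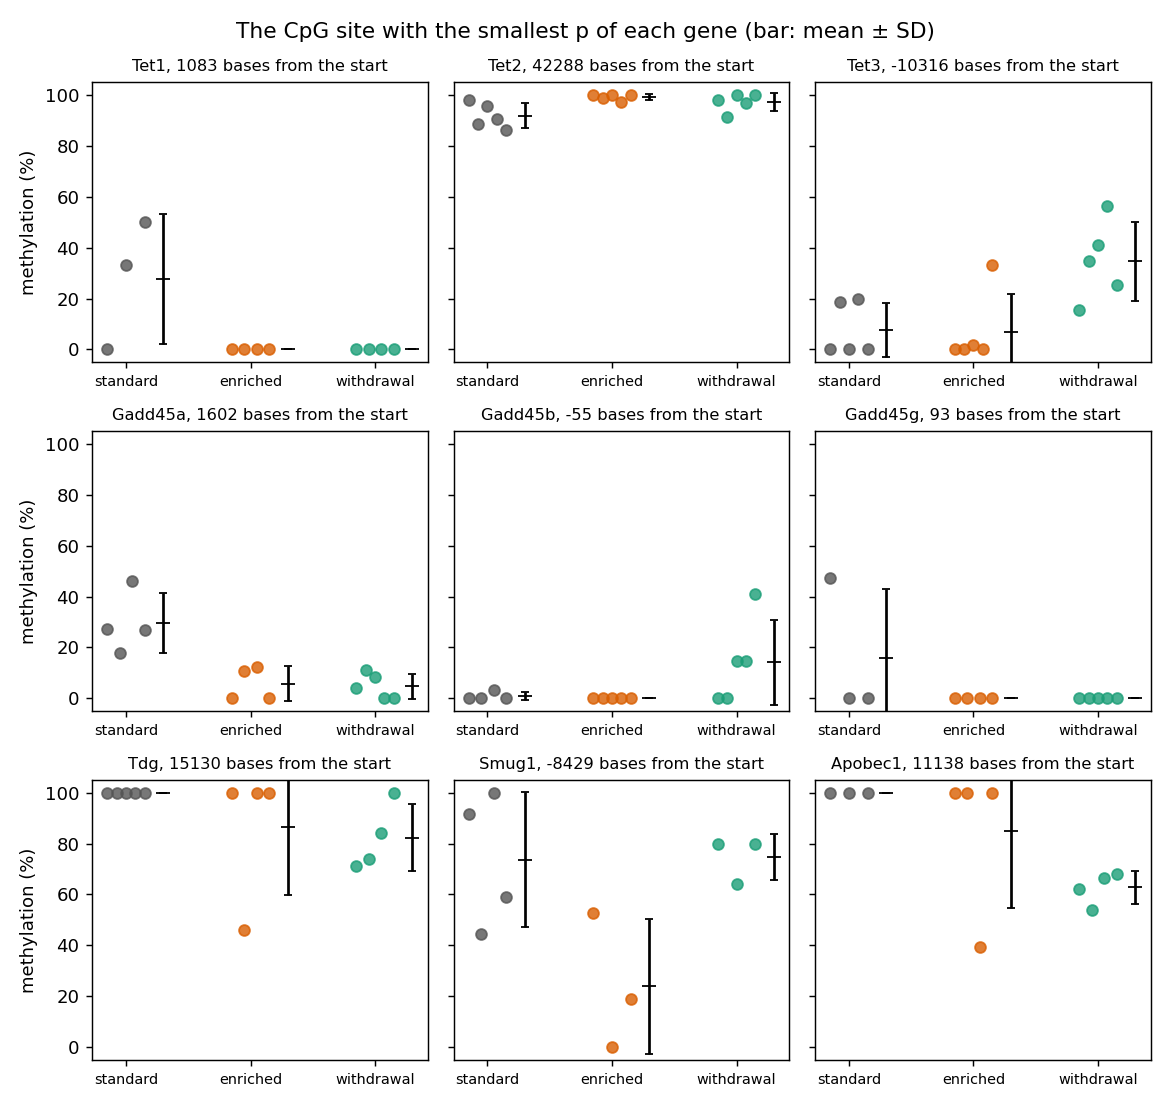
Methylation in percent in each mouse at the site with the smallest limma p of each gene, by housing group, with the mean and SD beside the points (bars run beyond the panel where they pass 0 or 100%). Groups do not overlap at Gadd45a (standard above both others), Apobec1 (standard above withdrawal) and Smug1 (withdrawal above enriched), and all other pairs of groups overlap.

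Start regions, the sites within 1 kb of the RefSeq start, could be averaged in 7 of the 9 genes when sites with values in part of the mice were used. Each mouse's value was then the mean of the site means plus its mean deviation from them. It is not the plain mean of the values read in that mouse. All but Tet3 were under 5% in each group mean, where 80.2% of the 8944 start regions in the genome were under 5% over all mice. The order of the standard means was Tet3 at 5.62% ± 3.94 (n = 4), Tet1 at 1.70% ± 0.665, Gadd45g at 1.55% ± 2.92 (n = 4), Smug1 at 1.23% ± 1.42, Gadd45b at 0.438% ± 0.303, Tet2 at 0.246% ± 0.493 (n = 4) and Gadd45a at 0.239% ± 0.521, each ± SD. Each pair of neighbours in that order differs by less than the larger of their SDs. In enriched mice Tet3 was again highest, at 6.99% ± 4.61, and Gadd45g lowest, at 0% in the 4 mice with a value. In withdrawal mice the means ran from 6.25% ± 3.0 at Tet3 and 2.59% ± 2.19 at Tet2 to 1.10% ± 1.81 at Gadd45g.

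No start region of these genes was called in any comparison, and 0 of 8944 were called over the genome (0%). At an unadjusted limma p under 0.05, 1 of the 7 passed for enriched against standard (Gadd45a, higher), 2 for withdrawal against standard (Gadd45a and Tet2, both higher) and 0 for withdrawal against enriched. The genome shares at that p were 5.61%, 5.39% and 4.66%. Withdrawal exceeded standard by 2.34 points at Tet2 (log2 difference 0.52 ± 0.22 SE, limma adjusted p = 0.886) and by 0.678 points at Gadd45b (log2 difference 0.18 ± 0.08 SE, limma adjusted p = 0.89). At Tet2 the withdrawal mice had 1.45, 0, 4.76, 4.99 and 1.72% and the standard mice 0, 0.985, 0 and 0%. The groups overlap at 0%.

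**Figure D5:**
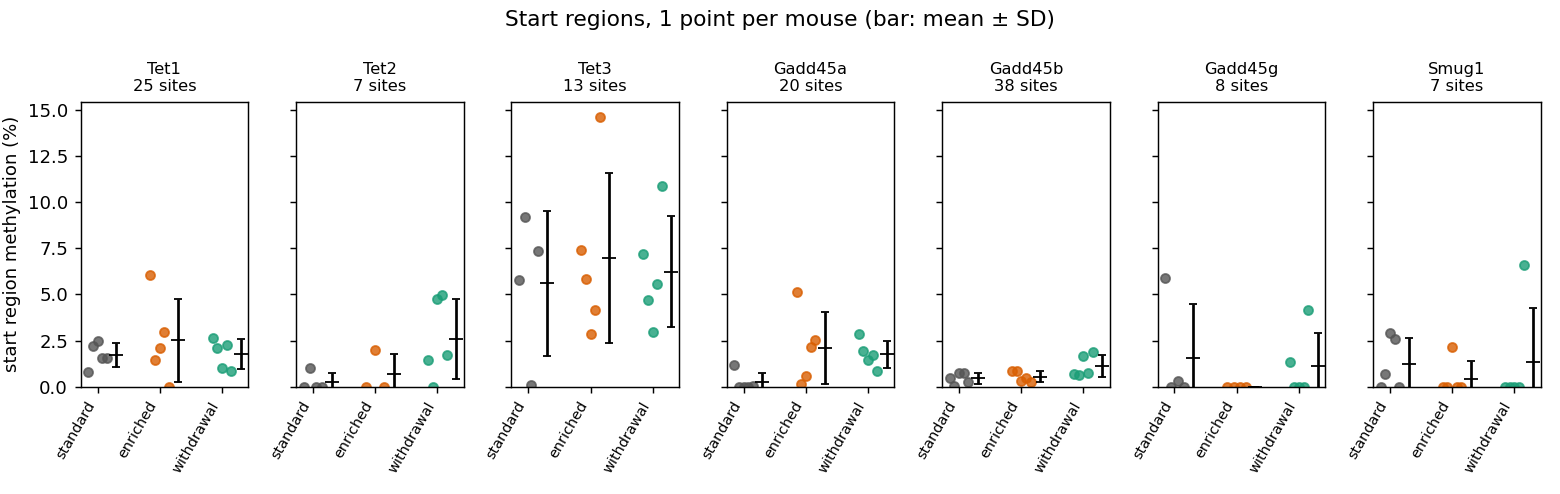
Start region methylation in percent in each mouse, by gene and housing group, from the sites within 1 kb of the RefSeq start. The group mean and SD stand beside the points (bars are cut at 0%). Sites with values in part of the mice are included. Each point is therefore the mean of the site means plus the mouse's mean deviation from them, not the plain mean of its own values. The Tet3 points spread from 0.094 to 14.6%, and the other 6 genes lie mostly under 5% with overlapping groups.

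The other genes of the pathway were looked at through a list of 19, which holds further deaminases and glycosylases, base excision repair enzymes, TET cofactors and the isocitrate dehydrogenases that supply the TET co-substrate. A start region could be averaged in 11 of the 19, again from deviations from the site means, with a median level of 1.92% beside 1.79% over all 8944 start regions. None was called in any comparison. At an unadjusted limma p under 0.05, 1 was higher and 1 lower in enriched against standard, 0 differed in withdrawal against standard, and 1 was higher and 1 lower in withdrawal against enriched. The same 2 genes made up both pairs. Idh2, the mitochondrial isocitrate dehydrogenase, had 0% in all 5 standard mice, 2.60% ± 1.98 (SD, n = 4) in enriched and 0.133% ± 0.297 in withdrawal mice (enriched against standard, limma adjusted p = 0.804). Parp1, which marks DNA breaks for repair, had 1.82% ± 0.839, 0.392% ± 0.537 and 2.53% ± 1.08 in the same order (withdrawal against enriched, limma adjusted p = 0.885). Both comparisons use the enriched mice, so their opposite signs are not independent.

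Markers of the cell types in the dissection were set beside these results through their start regions. The granule neuron gene Prox1, with 5 complete sites, had 4.36% ± 2.03 (SD, n = 5) in standard mice, 1.03% ± 0.709 in enriched mice and 1.48% ± 1.2 in withdrawal mice. Enriched minus standard was -3.33 points (limma adjusted p = 0.804), while withdrawal minus standard was -2.89 points (limma adjusted p = 0.845). Both comparisons with standard were at an unadjusted p under 0.05, as were 5.36% and 5.1% of all start regions, and the comparison of withdrawal with enriched was not (5.33% of all). Of the 2 member start regions with complete sites, Tet1 and Gadd45b, 0 were in any comparison. With the 30 Prox1 sites of any coverage enriched minus standard was -0.643 points (limma adjusted p = 0.896) and withdrawal minus standard -0.0729 points (limma adjusted p = 0.991). Of 8 genes of glia and other cells, 3 had a start region (Olig2, Aif1 and Cldn5), with 0 differences at an unadjusted p under 0.05. The part of cell composition in the member values was not tested.

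For the Tet1 cluster near 74.9 kb, the one with the largest spread among the 11 member clusters averaged over sites with values in all mice, the clusters of other genes most alike over the 15 mice were at Cops7b (Pearson r = 0.831), Cfap44 (r = 0.819) and Cd207 (r = 0.800) among 8145 compared. The points share libraries, and 1 low mouse, standard 2, sets the spread of the Tet1 cluster, so these values only describe it.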

How the data were processed

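Methylation was measured by RRBS in dentate gyrus DNA of 15 mice, 5 in each housing group, taken from the housing label. The authors deposited a percent methylation for each cytosine on each strand, without read counts, so counting error and depth are unknown and no coverage minimum could be applied. Per the submitters' processing notes, Trim Galore 0.4.0, cutadapt 1.8.1, Bismark 0.16.1, methylKit 1.5.2 and build mm10 were used. CpG positions are those before the table's chromosome column restarts. All 40643 of them inside RefSeq promoter windows of GRCm38.p6 were at a CpG on their strand, and 0 of 118360 later positions were. Exons and introns were not used here.

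Group means were fitted with limma 3.58.1 (R 4.3.3) on log2((percent + 5)/(100 - percent + 5)), with the prior variance as a trend of the mean. Two-sided p-values were adjusted (Benjamini-Hochberg) over every tested site, cluster or region of the genome and called at an adjusted p under 0.05. Site tests needed a value in 3 mice of every group and a range of 5 points. Clusters (gaps up to 100 bases), start regions (1 kb either side) and remainder regions (the gene and 5 kb beyond, without the start region) needed 3 sites with values in all 15 mice, or, as an alternative, in part of the mice. In the alternative a mouse's value was the mean of the site means plus its mean deviation from them over the sites it had. Results beyond the limits of a percentage were set to the limit. The p-values weigh a difference of group means against the spread between samples within groups, part of which may be technical. The script was tested on simulated data.

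The genes, lists and tests were chosen with earlier results of these data known. Named were every start region, remainder region and complete cluster, each gene's site with the smallest p, and the 5 sites with the largest spread within groups. Other sites that are named were chosen after their values were seen. Alternatives were another offset, the percent scale, complete sites, no range filter, averaged strands, other gaps and windows, a replicate block and leaving out each mouse.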

Additional observations from a re-analysis of the deposited data

Results flagged for a closer look

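In 72 groups of 4 or 5 mice, formed by the named sites, clusters and regions, 14 had 1 mouse far from the rest by Dixon's criterion. Chance marks about 1 in 20 such groups, and groups in which most mice are at exactly 0% or 100% are marked by any single departure. Start region and cluster of Tet1 at -24 to 341 bases are the same 4 sites. The Gadd45b start region likewise repeats the cluster at -224 to 103 bases, and the Gadd45g remainder region the cluster at 1559 to 1760 bases. Their groups of mice therefore count more than once.

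At Tet1, enriched mouse 3 had 1.04% in the start region and in the cluster from -24 to 341 bases, where the other enriched mice had 0%. Standard mouse 2 had 76.9% in the cluster near 74.9 kb, against 91.7 to 93.1% in the other standard mice. In the low block from 21375 to 21434 bases enriched mouse 2 had 7.41% against 0%, and withdrawal mouse 1 had 4.05% against 0 to 0.588%.

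At Tet2, standard mouse 4 had 10% at 10239 bases and 1.32% in the cluster from 1049 to 1107 bases, where the other standard mice had 0%. Withdrawal mouse 4 had 2.08% in that cluster, against 0% in the other withdrawal mice. Enriched mouse 4 had 93.9% in the cluster from 42288 to 42356 bases, against 97.3 to 98.4%.

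Enriched mouse 5 had 33.3% at the Tet3 site at -10316 bases, against 0 to 1.79%. Standard mouse 3 had 3.12% at the Gadd45b site at -55 bases, against 0%. At the Tdg site at 15130 bases enriched mouse 2 had 46.2%, and at the Apobec1 site at 11138 bases enriched mouse 3 had 39.4%, each against 100% in the other enriched mice. At the opposite strand of that Apobec1 CpG, 11137 bases from the start, withdrawal mouse 4 had 84.2% against 100%.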

How the results depend on the processing

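No member site, cluster or region was called under any alternative. Over the 32 named features, 650 values under alternatives kept their direction except for 12 that reversed and 2 that became 0. The smallest limma adjusted p was 0.268. These features are not all distinct. The start regions of Tet1 and Gadd45b hold the same complete sites as the clusters at -24 to 341 and -224 to 103 bases. The Gadd45g remainder region holds those of the cluster at 1559 to 1760 bases. The 2 values that became 0 are thus the same Tet1 sites. The exceptions, with the cause not tested, were as follows. Leaving out 1 mouse moved Tet2 at 10224 bases between -35.3 and 14.7 points (withdrawal minus enriched, reversed without enriched mouse 4), Apobec1 at 11273 bases between -30.0 and 5.02 (withdrawal minus enriched, reversed without enriched mouse 4 or 5), the Tet1 remainder region between -0.232 and 1.15 (enriched minus standard, reversed without standard mouse 2), the Gadd45b remainder region between -0.654 and 3.14 (withdrawal minus enriched, reversed without withdrawal mouse 5), the Tet1 cluster near 21.4 kb between -0.98 and 0.393 (withdrawal minus standard, reversed without standard mouse 2 and, at 0.0332, without withdrawal mouse 2 or 3) and the Tet1 cluster at -3813 to -3746 bases between -1.68 and 0.565 (withdrawal minus enriched, reversed without enriched mouse 1 and, at 0.434, without enriched mouse 3). The Tet1 start region and the Tet1 cluster at -24 to 341 bases ran between 0, without enriched mouse 3, and 0.26 points (enriched minus standard). The Gadd45b remainder region became -0.0719 points with sites in part of the mice, and Apobec1 at 11137 bases -6.61 (withdrawal minus standard) with strands averaged.

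Counts over the whole genome, 0 as reported, did move. Without the filter on the range, 62, 56 and 65 sites were called for enriched against standard, withdrawal against standard and withdrawal against enriched, none of them a member and none with a range under 5 points. Clusters gave 1 call for enriched against standard with an offset of 1 point and 1 for withdrawal against standard with sites in part of the mice. Leaving out 1 mouse gave 0 to 2 and 0 to 1 clusters in these comparisons, 0 to 2, 0 to 1 and 0 to 1 start regions and 0 to 3, 0 to 2 and 0 to 1 remainder regions. The mice whose absence gave a call were standard 1, 3 and 5, enriched 4 and withdrawal 2 and 4.

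The labels number the mice 1 to 5 in each group. Same-numbered mice correlated at -0.0179 to 0.0192 in their deviations from the group means, so the numbers were not taken as pairs, and a mouse correlated best with its own number in another group in 5 of 30 cases. With the replicate block 1 start region was called in enriched against standard mice and 1 in withdrawal against enriched mice, neither of them a member.

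Unknown depth limits single sites most, since a percentage from few reads takes few values, and a site read in 3 mice of a group rests on those mice.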
